A study of Mus musculus with 12 samples.

Results

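A set of imprinted protein-coding genes was followed through primary mouse embryonic fibroblasts with and without deletion of Htt, which encodes the scaffold protein huntingtin. They are Peg3, Zim1, Plagl1, Ndn, Peg10, Grb10, Dlk1, Mest, Sgce and Nnat, taken by symbol from a list of 10 genes, out of 55487 Ensembl genes counted in each library. All 10 were found, each with a single Ensembl identifier, and all 10 passed the filter on low counts in every comparison. The fibroblasts came from mid-gestation embryos, and in every group both Htt alleles were floxed, that is flanked by sites at which Cre recombinase cuts. HTT-deleted cells had received a lentivirus carrying Cre and GFP, control cells a lentivirus carrying the H2B-eGFP fusion protein instead, and both were collected 7 days after transduction. From each cell suspension, ribosomes were purified and their RNA extracted, while a small part of the suspension was set aside for total RNA. This gave 3 ribosome-associated HTT-deleted, 3 ribosome-associated control, 3 total HTT-deleted and 3 total control libraries. Replicates were different primary cultures or separate passages, and no clone or sort of transduced cells is described in the labels.

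An imprinted gene is transcribed mainly from the allele of a given parent, owing to a methylation mark set in the germ line. Many imprinted genes act on fetal growth and are strongly expressed in embryonic mesenchyme, from which fibroblast cultures are made. Of the genes described here, Grb10 and Zim1 are known in mouse as mainly maternally expressed outside the brain, and the other 8 as paternally expressed. The reads were counted per gene, so the parental origin of the transcripts was not measured.

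Peg10 is a gene derived from a retrotransposon and needed for the placenta. Among the members, it alone was called for the HTT effect by edgeR run here on the counts. That call came only in ribosome-associated RNA, in a fit blocked by replicate number, and not without the block. The Peg10 messenger is read by ribosomes in an unusual way. Ribosomes slip back by a base at a heptamer, GGGAAAC, and so join a second reading frame to the first. The heptamer was found at chr6:4755327-4755333 (GRCm38, plus strand), in exon 2 of 2, at position 1477 of a 6667-base transcript in GENCODE M21. The stretch below, chr6:4755306-4755377, has the heptamer in capitals.

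Peg10 frameshift site: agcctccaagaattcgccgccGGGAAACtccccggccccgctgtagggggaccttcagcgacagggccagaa

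In the first frame the reading frame ends at a TAG 15 bases after the heptamer, after 376 codons. In the shifted frame it runs on for 637 codons. The counts cover the whole gene and do not separate the frames.

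Peg3, Zim1 and Plagl1, which encode zinc-finger proteins, are the members with the lowest ribosome-associated level relative to total RNA, and windows around their annotated starts are shown for that reason. Each window runs from 250 bases before to 50 bases after the start (RefSeq, GRCm38.p6), is written 5′ to 3′ on the gene's strand, and has every CG, the dinucleotide that carries imprinting methylation, in capitals. The windows are chr7:6730370-6730669 (minus strand) for Peg3, chr7:6696383-6696682 (minus strand) for Zim1 and chr10:13090582-13090881 (plus strand) for Plagl1.

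Peg3: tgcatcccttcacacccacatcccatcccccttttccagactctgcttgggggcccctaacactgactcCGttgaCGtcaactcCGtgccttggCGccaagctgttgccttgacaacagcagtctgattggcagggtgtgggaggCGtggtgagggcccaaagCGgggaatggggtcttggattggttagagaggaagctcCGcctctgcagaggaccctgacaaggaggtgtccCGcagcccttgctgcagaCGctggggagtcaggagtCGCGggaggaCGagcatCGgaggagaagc

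Zim1: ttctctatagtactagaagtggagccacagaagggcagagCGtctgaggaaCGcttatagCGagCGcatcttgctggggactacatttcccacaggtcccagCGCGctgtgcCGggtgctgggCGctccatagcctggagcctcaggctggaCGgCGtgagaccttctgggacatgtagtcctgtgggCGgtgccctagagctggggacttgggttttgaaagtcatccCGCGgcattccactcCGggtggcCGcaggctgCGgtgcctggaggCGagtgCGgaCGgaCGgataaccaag

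Plagl1: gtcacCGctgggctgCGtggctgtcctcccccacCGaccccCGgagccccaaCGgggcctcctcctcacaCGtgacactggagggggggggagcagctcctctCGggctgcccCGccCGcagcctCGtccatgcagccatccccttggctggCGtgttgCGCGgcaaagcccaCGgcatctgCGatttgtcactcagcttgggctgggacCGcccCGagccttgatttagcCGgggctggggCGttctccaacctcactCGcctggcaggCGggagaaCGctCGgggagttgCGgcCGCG

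The Peg3 window holds 13 CG, the Zim1 window 20 and the Plagl1 window 26, against a median of 7 in all 32851 windows. The median of the 11 windows available for 8 members was 17, and windows of other members held from 8 (Mest) to 45 (Grb10). A link between CG number and ribosome association was not tested. At least as many CG were found in 37.9% of all windows for Peg3, in 26.5% for Zim1 and in 16.9% for Plagl1. TGCCGC, the hexamer bound when methylated by ZFP57, a protein that keeps imprints in the embryo, was searched on both strands. It was present in 11.6% of all windows, in the Zim1 and Plagl1 windows, and in 6 of the 11 windows available for 8 members. Those 6 include a pair of Mest windows that overlap almost fully, chr6:30737800-30738099 and chr6:30737803-30738102. The hexamer itself holds a CG, and the share over all windows was not matched for CG number. A match is a description of the letters in a window and not a bound site.

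Gene counts per library summed to 16789356 to 30571501. Htt, the check of the labels, was lower in HTT-deleted cells without overlap in each fraction, with 3.98 to 12.8 against 20.1 to 32.0 CPM in ribosome-associated RNA and 10.6 to 15.5 against 45.7 to 64.5 CPM in total RNA. Its edgeR adjusted p was 1.00 and 0.812 over all genes, with unadjusted p = 0.00833 and 5.5e-05. DESeq2 gave Htt an adjusted p of 0.217 in ribosome-associated RNA and of 3.2e-11 in total RNA. All 14 fibroblast markers averaged at least 1 CPM in every group. Of 8 skeletal muscle markers 1 did so in each group, and only Myod1, the myoblast factor, was at 0 in all 12 libraries. The same level was reached by 4 to 6 of 10 neural, 4 or 5 of 8 endothelial and 6 or 7 of 10 mesothelial and epithelial markers, depending on the group. All 18 macrophage markers also averaged at least 1 CPM in every group. A library of total RNA, HTT-deleted replicate 1, stood apart. Set against control replicate 1, its 3277 genes of shortest exon length (255 to 2903 bases) had a median log2 difference of 0.53, and its 3276 genes of longest exon length (6956 to 123179 bases) one of -0.51. In pairs 2 and 3 the same medians lay between -0.05 and 0.03.

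Levels were compared between genes as RPKM, which scales counts to exon length and library size. Mest, which encodes an enzyme-like protein of the endoplasmic reticulum and is named for its expression in mesoderm, had the highest level, with a mean of 119.4 RPKM over the 12 libraries (range 67.1 to 160.2). Grb10, an adaptor protein that dampens signalling by the insulin and IGF1 receptors, followed with 71.0 RPKM (57.7 to 82.1). Mest stood above Grb10 in 11 of 12 libraries, the exception being ribosome-associated HTT-deleted replicate 1. Mest shares 912 exon bases, 23.1% of its exons, with Copg2 on the opposite strand, and how the counting treated strand was not given in the sources used here, so Copg2 reads in its level cannot be told apart.

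The middle of the order held Ndn, Plagl1 and Dlk1. Ndn, which encodes the growth-suppressing MAGE family protein necdin, averaged 30.3 RPKM (24.2 to 39.2). Plagl1, a zinc-finger transcription factor, averaged 24.8 RPKM (16.7 to 38.8), and Dlk1, a membrane protein with EGF repeats that holds back adipocyte differentiation, averaged 21.8 RPKM (9.96 to 36.5). Ndn stood above Plagl1 in 7 of 12 libraries and in 0 of the 3 total control libraries, and Plagl1 above Dlk1 in 8 of 12, so these 3 were not separated.

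Peg3, a large zinc-finger protein, averaged 9.83 RPKM (5.39 to 15.9), and Sgce, the epsilon subunit of the sarcoglycan complex of the membrane, 8.40 RPKM (6.43 to 11.8). Peg3 was above Sgce in 7 of 12 libraries. Peg10 averaged 2.80 RPKM (1.20 to 4.56). Zim1, the zinc-finger gene next to Peg3, averaged 1.59 RPKM (0.772 to 2.34), and Nnat, a small protein of the endoplasmic reticulum membrane best known in neurons, 0.928 RPKM (0.0872 to 1.99). Zim1 was above Nnat in 7 of 12 libraries, while each of the steps from Grb10 to Ndn, Dlk1 to Peg3, Sgce to Peg10 and Peg10 to Zim1 held in 12 of 12. Nnat rested on 3 to 88 reads a library, whereas every other member had at least 106.

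**Figure D1:**
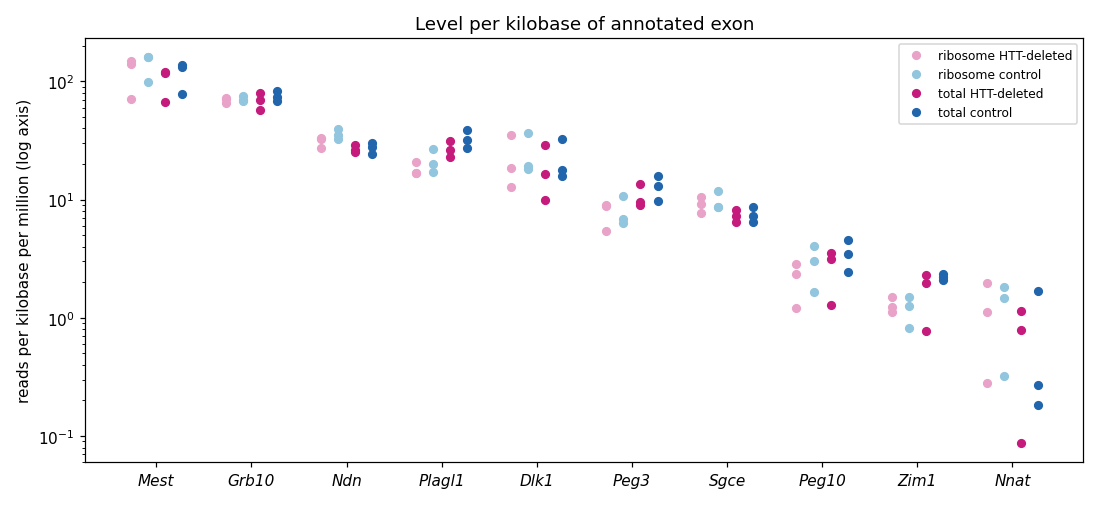
Level of each gene in the 12 libraries in RPKM on a log axis, with genes in the order of their mean. Mest and Grb10 lie highest, at 57.7 RPKM or more in every library, and Nnat spreads from 0.0872 to 1.99 RPKM.

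The genes share a few positions on the map. Sgce (chr6:4674350-4747207, minus strand) and Peg10 (chr6:4747306-4760517, plus strand) point away from each other with starts 99 bases apart. Peg3 (chr7:6703892-6730431) and Zim1 (chr7:6671269-6696450) both lie on the minus strand, with 7442 bases from the end of Peg3 to the start of Zim1. These neighbours did not have equal levels, since Sgce exceeded Peg10, and Peg3 exceeded Zim1, in 12 of 12 libraries. Mest lies at chr6:30723547-30748465, Ndn at chr7:62346569-62350262, Plagl1 at chr10:13060504-13131694, Grb10 at chr11:11930508-12038683, Dlk1 at chr12:109452823-109463336 and Nnat at chr2:157560078-157562522 (all GRCm38).

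Replicates of a group differed widely for several members. In the total control libraries the members' median SD of log2 CPM was 0.303, against 0.157 over all genes tested, and in ribosome-associated control it was 0.407 against 0.207. The same held in ribosome-associated HTT-deleted libraries, at 0.327 against 0.178, and not in total HTT-deleted libraries, at 0.398 against 0.394, where replicate 1 stood apart. Replicate 2 was the highest of its group for most members, and replicate 1 the lowest for Dlk1, Peg10 and Mest in all 4 groups.

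Dlk1 showed this clearly. It had 71.9, 200.3 and 104 CPM in ribosome-associated HTT-deleted replicates 1, 2 and 3, against 103, 206 and 108 CPM in the controls. In total RNA it had 56.3, 164 and 92.6 CPM in HTT-deleted cells, against 89.3, 186 and 101 CPM in controls. Replicate 2 was the highest in each group, and the HTT-deleted and control ranges overlapped widely. The highest Dlk1 library was 2.00 times the lowest within ribosome-associated control and 2.91 times within total HTT-deleted. Nnat spread further, with 9.23 times between total control replicates 2 and 3. Grb10 spread least in ribosome-associated control, at 1.11 times and 1.38 times in total HTT-deleted libraries.

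**Figure D2:**
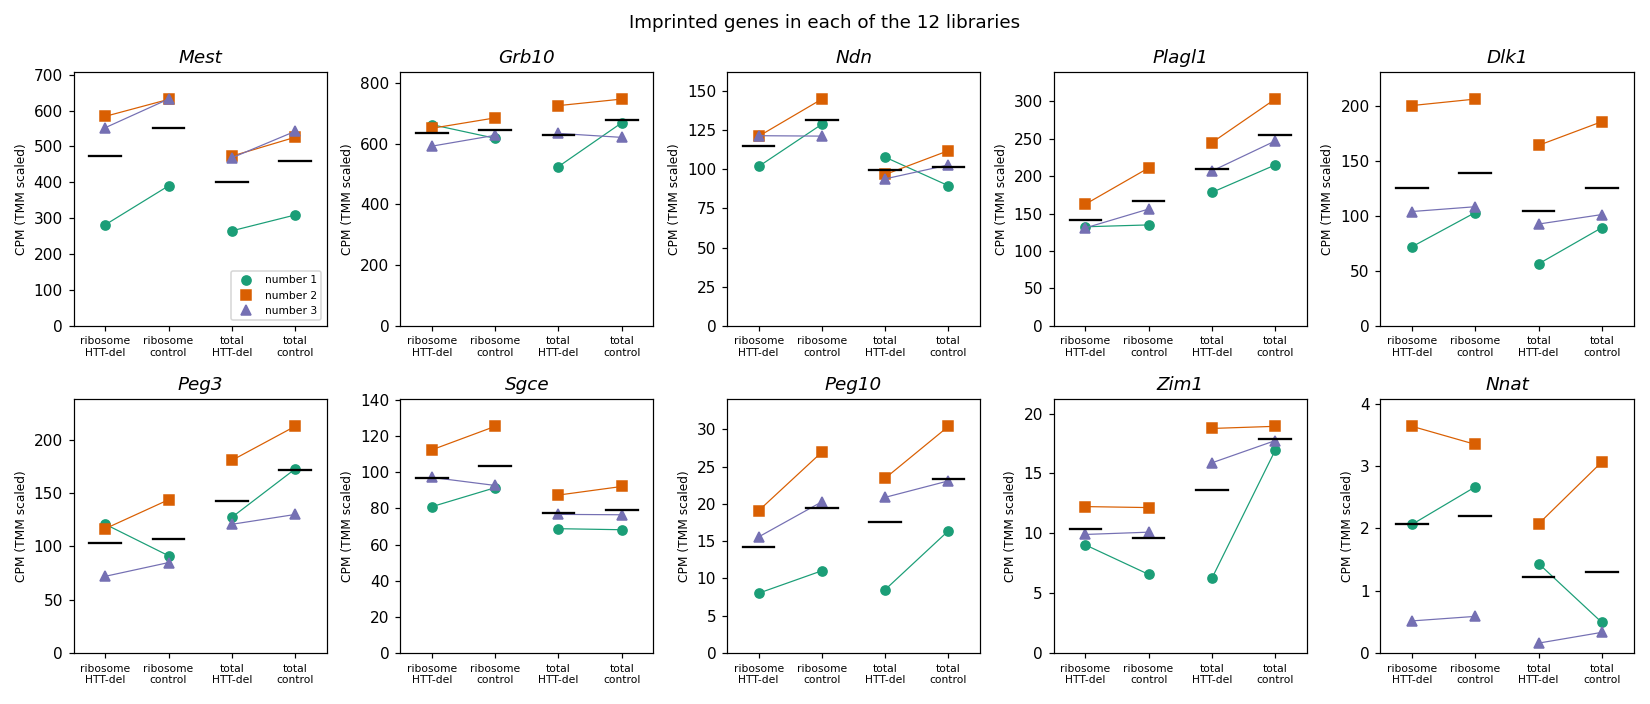
CPM of each gene in the 12 libraries by group, with numbered pairs of HTT-deleted and control libraries joined by a line, black bars at the group means (n = 3) and axes from 0. Replicate 1 is lowest for Mest, Dlk1 and Peg10 in every group, and replicate 3 is lowest for Nnat.

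The first question of the series is what loss of huntingtin does to RNA levels. Most of the genes lay somewhat lower in HTT-deleted cells, and without a block edgeR's quasi-likelihood test called none of the 10 in either fraction. In ribosome-associated RNA, 9 of 10 log2 fold changes were below 0, with a median of -0.12, against 50.3% below 0 and a median of -0.0010 over all genes. In total RNA, 8 of 10 were below 0, with a median of -0.20, against 48% and 0.013. At a Benjamini-Hochberg adjusted p under 0.05, edgeR called 0 of 14588 genes (0%) in the ribosome-associated fraction and 0 of 14759 (0%) in total RNA. Unadjusted p-values under 0.05 were found for 110 and 44 genes. These fits did not call Htt, the deleted gene, either, so a lack of calls does not show a lack of change. DESeq2 called 1 and 3 genes (0.004% and 0.0113%), none of them a member, and Htt was called in total RNA only. Blocked by replicate number and without pair 1, edgeR also called Htt in total RNA (adjusted p = 5.5e-06), with 0.629% of genes and 0 members called. Without a block no member had an unadjusted p under 0.05, the smallest being that of Ndn in ribosome-associated RNA, at 0.115. In edgeR fits blocked by replicate number, Peg10, Mest, Plagl1, Ndn and Dlk1 had one in ribosome-associated RNA, 5 of 10 members against 1471 of 14588 genes, and 0 of 10 in total RNA against 350 of 14759. Without pair 1 and with the block these were 3 and 6 of 10 members, against 985 of 14836 and 1414 of 14938 genes. Each fit without pair 1 holds 4 libraries and leaves 1 residual degree of freedom, so its p-values rest on the spread pooled over all genes. In neither fraction were the groups of any member free of overlap, against 2.82% of all genes lower and 2.63% higher without overlap in ribosome-associated RNA, and 2.6% and 1.61% in total RNA.

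Peg10 had the largest difference in ribosome-associated RNA. It had 8.03, 19.1 and 15.6 CPM in HTT-deleted replicates 1, 2 and 3, against 11.03, 26.96 and 20.3 CPM in controls. Each HTT-deleted library was lower than the control of its own number, although the ranges overlapped. HTT-deleted cells averaged 14.2 ± 5.65 CPM and control cells 19.4 ± 8.00 CPM (SD, n = 3 each). The log2 fold change was -0.45 (SE 0.41; edgeR adjusted p = 1.00), and leaving out 1 library moved it between -0.72 (without ribosome control replicate 1) and -0.14 (without ribosome control replicate 2). Same-numbered libraries deviated together, and in a fit blocked by replicate number the log2 fold change was -0.44 (SE 0.11; edgeR adjusted p = 0.0385). Peg10 was then the only member called, among 247 of 14588 genes (1.69%), of which 213 (1.46%) were higher and 34 (0.233%) lower. Within pairs the log2 differences were -0.46, -0.50 and -0.38. Without pair 1 the blocked value was -0.44 (edgeR adjusted p = 0.132), and the call was lost, with 14 genes called (0.0944%). In the authors' deposited table, whose p-values come from a different model, Peg10 had a log2 fold change of -0.42 with a false discovery rate of 0.00462 in ribosome-associated RNA, where 4.21% of genes were under 0.05.

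Peg10 was also lower in total RNA of each pair, though unevenly. It had 8.50, 23.4 and 20.9 CPM in HTT-deleted cells, against 16.4, 30.4 and 23.1 CPM in controls. Pair 1 differed most, by -0.94 on the log2 scale, against -0.37 and -0.14 in pairs 2 and 3, and pair 1 holds the library that stood apart. The log2 fold change was -0.38 (SE 0.40; edgeR adjusted p = 0.978), and without total HTT-deleted replicate 1 it was -0.057. The authors' deposited table gives -0.47 with a false discovery rate of 0.116.

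Plagl1 was the steadiest of the members in total RNA. It had 178, 245 and 207 CPM in HTT-deleted replicates 1, 2 and 3, against 215, 303 and 247 CPM in controls. The pair differences were -0.27, -0.31 and -0.26 on the log2 scale. In ribosome-associated RNA it had 132, 163 and 131 CPM in HTT-deleted cells, against 135, 211 and 156 CPM in controls. Pair 1 differed little there, by -0.027, and pairs 2 and 3 by -0.38 and -0.25. The log2 fold changes were -0.23 (SE 0.18) in ribosome-associated RNA and -0.25 (SE 0.19) in total RNA, neither called by edgeR (adjusted p = 1.00 and 0.978). Leaving out 1 library gave -0.36 (without ribosome control replicate 1) to -0.033 (without ribosome control replicate 2) in ribosome-associated RNA, and -0.37 (without total HTT-deleted replicate 2) to -0.11 (without total control replicate 2) in total RNA. Without pair 1 and with the block the value was -0.31 (adjusted p = 0.145) in ribosome-associated and -0.27 (adjusted p = 0.0892) in total RNA, where 0.629% of genes were called.

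Mest was lower in all 6 pairs as well. It had 281, 584 and 552 CPM in ribosome-associated HTT-deleted replicates 1, 2 and 3, against 389.9, 631 and 632 CPM in controls. In total RNA it had 265, 473 and 468 CPM in HTT-deleted cells, against 309, 525 and 542 CPM in controls. The replicate 1 libraries were far below the rest in both genotypes, so the ranges overlapped. The log2 fold changes were -0.22 (SE 0.32) and -0.17 (SE 0.30), and with the block they were -0.25 (SE 0.090) and -0.17 (SE 0.16). Dlk1 had -0.15 (SE 0.44) in ribosome-associated and -0.24 (SE 0.44) in total RNA. Its pair 1 differences of -0.52 and -0.66 outweighed those of pairs 2 and 3, which ran from -0.18 to -0.042.

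Peg10, Plagl1, Mest and Dlk1 were lower in all 6 pairs of both fractions, against 3.8% of all genes that did so. In ribosome-associated RNA, 4 of 10 members were lower in all 3 pairs, against 15.6% of genes, and 0 were higher in all 3, against 16.1%. In total RNA, 6 of 10 were lower in all 3, against 13.2%, and 0 were higher in all 3, against 9.99%. The fractions come from the same suspensions, so the 6 pairs are not independent, and members were not replicates of a condition. In bulk RNA, fewer cells of a type and less RNA per cell cannot be told apart. Macrophage markers, summed over 18 genes, moved the other way. They came to 9590, 3212 and 4203 CPM in ribosome-associated HTT-deleted replicates 1, 2 and 3, against 5583, 1373 and 3028 CPM in controls. In total RNA they came to 8049, 2102 and 3234 CPM in HTT-deleted cells, against 3828, 916 and 2119 CPM in controls. The 14 fibroblast markers summed to 36513, 47603 and 38229 CPM in ribosome-associated HTT-deleted libraries, against 41201, 56174 and 36789 CPM in controls. Their sums in total RNA were 30502, 57407 and 46810 CPM in HTT-deleted cells, against 53530.5, 60641 and 46505 CPM in controls. The part of cell makeup in the members' differences was not tested.

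**Figure D3:**
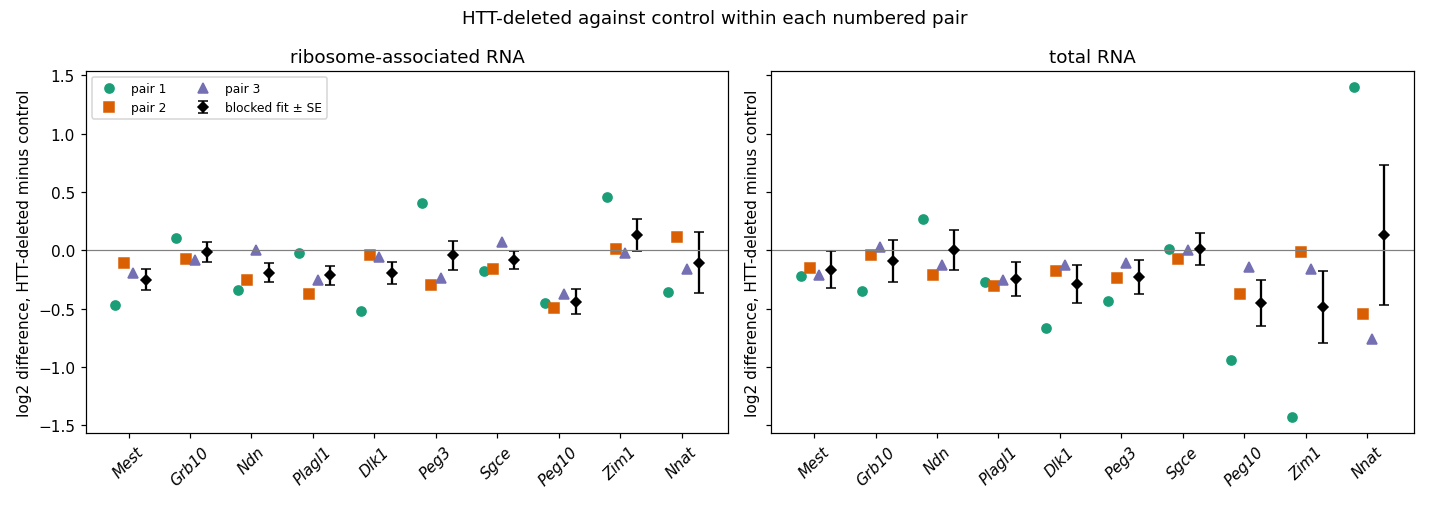
Log2 difference of CPM, HTT-deleted minus control, within each numbered pair for each gene, with black diamonds for the blocked edgeR fit and its standard error, in ribosome-associated RNA (left) and total RNA (right). Peg10 lies between -0.50 and -0.38 in the 3 ribosome-associated pairs, while pair 1 of Zim1, Peg10 and Dlk1 lies far below the others in total RNA.

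Peg3 and Zim1, neighbours with opposite parental expression, were lower in all 3 pairs of total RNA and divided between pairs in ribosome-associated RNA. Peg3 had 121, 117 and 71.9 CPM in ribosome-associated HTT-deleted replicates 1, 2 and 3, against 91.2, 144 and 84.7 CPM in controls. It was higher in pair 1 and lower in the others, and its log2 fold change was -0.042 (SE 0.28). In total RNA it had 127, 180.5 and 121 CPM in HTT-deleted cells, against 172, 212 and 129.8 CPM in controls, a log2 fold change of -0.24 (SE 0.24). Zim1 had 9.03, 12.2 and 9.91 CPM in ribosome-associated HTT-deleted cells, against 6.57, 12.1 and 10.1 CPM in controls. In total RNA it had 6.24, 18.8 and 15.9 CPM in HTT-deleted cells, against 16.9, 18.9 and 17.7 CPM in controls. Its total log2 fold change of -0.37 (SE 0.37) rested on HTT-deleted replicate 1, and was -0.032 without that library. The authors' deposited table lists Zim1 in total RNA at -0.50 with a false discovery rate of 0.0253, where 4.97% of genes were under 0.05.

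Grb10, Ndn, Sgce and Nnat varied around the controls. Grb10 had 662, 650.1 and 591 CPM in ribosome-associated HTT-deleted replicates 1, 2 and 3, against 617, 684 and 627 CPM in controls. Its log2 fold change there was -0.014 (SE 0.098). Ndn had -0.19 (SE 0.11) in ribosome-associated and 0.0046 (SE 0.15) in total RNA. Sgce had -0.087 (SE 0.17) and 0.0041 (SE 0.16). Nnat, at few reads, had -0.066 (SE 0.83) and -0.018 (SE 1.09), and its pairs ran from -0.77 to 1.40. The interaction term, which asks whether the HTT effect differed between fractions, called 0 of 15574 genes (0%) in edgeR and 0 in DESeq2, with 85 genes under 0.05 before adjustment in edgeR. Its largest value among the members was that of Zim1, at 0.50 (SE 0.48; edgeR adjusted p = 1.00).

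Ribosome association, the second readout, divided the members. Zinc-finger messengers Zim1, Peg3 and Plagl1 lay lower in ribosome-associated than in total RNA, while Ndn, Sgce and Mest lay higher. In control cells edgeR called Zim1 lower and Ndn higher, 2 of 10 members, against 15% of all genes lower and 10% higher (3745 of 14990 called, 25%). Same-numbered fractions come from the same suspension, and with the suspension as a block 7 of 10 members were called, 4 lower and 3 higher, against 25.9% and 24.3% of all genes (50.2% in all). DESeq2 called 4 members, Zim1, Peg3 and Plagl1 lower and Ndn higher, against 22.9% of genes in either direction.

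Zim1 had the largest difference in the unblocked fit, while with the block Nnat, at few reads and not called, was further from 0. Zim1 had 6.57, 12.1 and 10.1 CPM in ribosome-associated RNA of control replicates 1, 2 and 3, against 16.9, 18.9 and 17.7 CPM in their total RNA. Every ribosome-associated library was below every total library, as was so for 23.5% of all genes. It averaged 9.61 ± 2.82 CPM in ribosome-associated and 17.9 ± 1.01 CPM in total RNA (SD, n = 3 each). The log2 fold change was -0.90 (SE 0.21; edgeR adjusted p = 0.0217). With the block it was -0.92 (SE 0.13; adjusted p = 5.8e-05). Leaving out total control replicate 1, 2 or 3 ended the unblocked call, at adjusted p = 0.067, 0.072 and 0.0576.

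Plagl1 and Peg3 followed. Plagl1 had 135, 211 and 156 CPM in ribosome-associated control replicates 1, 2 and 3, against 215, 303 and 247 CPM in total RNA, again without overlap. Its pair differences of -0.67, -0.52 and -0.66 lay close together. The log2 fold change was -0.62 (SE 0.19; edgeR adjusted p = 0.0549), and with the block -0.63 (SE 0.070; adjusted p = 8.9e-06). Peg3 had 91.2, 144 and 84.7 CPM in ribosome-associated control libraries, against 172, 212 and 129.8 CPM in total RNA, where the ranges overlapped. Its pair differences were -0.92, -0.56 and -0.61, with a log2 fold change of -0.70 (SE 0.26; edgeR adjusted p = 0.099) and of -0.71 (SE 0.081; adjusted p = 1.1e-05) with the block. Among the unblocked fits with 1 library left out, only that without ribosome control replicate 2 called either. It gave -0.81 (edgeR adjusted p = 0.0243) for Plagl1 and -0.96 (edgeR adjusted p = 0.0293) for Peg3, with 3036 of 15577 genes called. Peg10 was called with the block at -0.30 (SE 0.10; adjusted p = 0.0232), with pair 1 at -0.57 and the others at -0.17 and -0.19, and not without pair 1 (adjusted p = 0.0822, with 49.2% of genes called).

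Ndn was the member called higher without the block. It had 129, 145 and 121 CPM in ribosome-associated control replicates 1, 2 and 3, against 89.5, 112 and 103 CPM in total RNA. Every ribosome-associated library was above every total library, as in 20.6% of all genes. The log2 fold change was 0.37 (SE 0.11; edgeR adjusted p = 0.0437). Leaving out any library but ribosome control replicate 3 ended the unblocked call, at adjusted p from 0.0589 (without total control replicate 2) to 0.142 (without total control replicate 1), with 0.0957 and 0.124 without ribosome control replicates 1 and 2 and 0.109 without total control replicate 3. With the block it was 0.37 (SE 0.075; adjusted p = 0.00104).

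Sgce and Mest were called with the block only. Sgce had 91.5, 125 and 92.7 CPM in ribosome-associated control replicates 1, 2 and 3, against 68.2, 92.2 and 76.5 CPM in total RNA, and the blocked log2 fold change was 0.37 (SE 0.072; edgeR adjusted p = 7.1e-04). Mest had 389.9, 631 and 632 CPM in ribosome-associated control libraries, against 309, 525 and 542 CPM in total RNA, and 0.27 (SE 0.073; adjusted p = 0.00764) with the block. The ranges of both overlapped, and each was higher in 3 of 3 pairs. Dlk1 (0.14, SE 0.070; adjusted p = 0.101), Nnat (0.97, SE 0.39; adjusted p = 0.0547) and Grb10 (-0.082, SE 0.077; adjusted p = 0.397) did not pass with the block.

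In HTT-deleted cells total replicate 1 again differed from the other 2 total libraries. edgeR called 0 of 10 members, without or with the block, against 0.896% and 0.663% of all genes, and DESeq2 also called 0, against 4.33%. Zim1 had 9.03, 12.2 and 9.91 CPM in ribosome-associated replicates 1, 2 and 3, against 6.24, 18.8 and 15.9 CPM in total RNA, so that replicate 1 alone was higher, by 0.53 on the log2 scale, against -0.61 and -0.68. Peg3 showed a similar split, at -0.075, -0.63 and -0.75, and so did Ndn, at -0.082, 0.32 and 0.37. Plagl1 differed by -0.43, -0.59 and -0.66 and did not overlap, as in 11.6% of genes lower and 8.91% higher, with a log2 fold change of -0.58 (SE 0.18; edgeR adjusted p = 0.237). Without total HTT-deleted replicate 1, edgeR called Zim1 at -0.74 (adjusted p = 0.038) and Plagl1 at -0.68 (adjusted p = 0.0249), among 19.9% of all genes. Without pair 1 and with the block all 10 members were called, among 55.6% of all genes, with Zim1 at -0.65, Peg3 at -0.69, Ndn at 0.34 and Sgce at 0.35. That fit holds 4 libraries and leaves 1 residual degree of freedom, so its calls rest on the spread pooled over all genes.

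In HTT-deleted suspensions 3 members were lower in 3 of 3 (19.5% of all genes) and 4 higher (22.2%), and in control suspensions 4 were lower (34.6%) and 5 higher (37.2%). Over the 6 suspensions of both genotypes, Plagl1, Peg3 and Peg10 were lower in ribosome-associated RNA in 6 of 6, against 16.1% of all genes. Sgce, Mest, Dlk1 and Nnat were higher in 6 of 6, against 16.5%. Exon length moved with this comparison. In control pairs 1, 2 and 3 the 3277 genes of shortest exon length had a median log2 difference of 0.43, 0.30 and 0.23, and the 3276 of longest exon length one of -0.43, -0.22 and -0.20. Zim1 (8086 bases), Plagl1 (7819) and Peg3 (13324) are among the longest, Ndn (3694) and Mest (3945) are shorter, and Sgce (10612), also long, was higher. In HTT-deleted pairs 2 and 3 the medians were 0.35 and 0.29 for the shortest and -0.27 and -0.26 for the longest. HTT-deleted pair 1, where Zim1 and Ndn changed sign, ran the other way, at -0.27 for the shortest and 0.24 for the longest. The part of length in these differences was not tested.

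**Figure D4:**
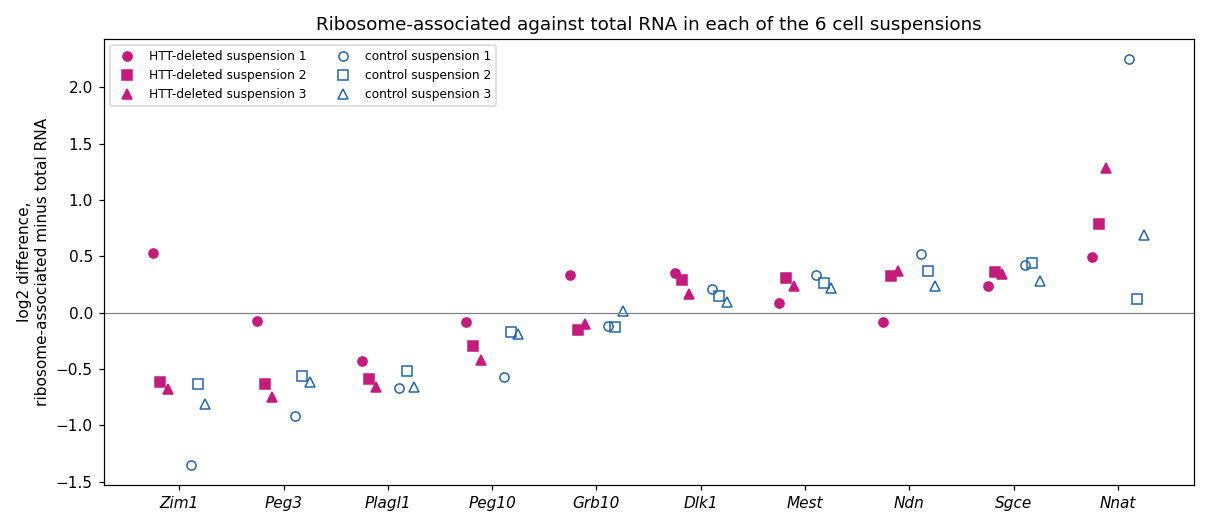
Log2 difference of CPM, ribosome-associated minus total RNA, for each gene in each of the 6 cell suspensions, filled for HTT-deleted and open for control cells, with genes ordered by the blocked fit in control cells. Plagl1, Peg3 and Peg10 lie below 0 in all 6, and HTT-deleted suspension 1 is set apart for Zim1, Peg3, Grb10 and Ndn.

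Other imprinted genes gave the wider setting. Of 55 further imprinted genes listed as coding, GENCODE M21 gives 52 as protein-coding and 3 (Zfp264, Zim2 and Zim3) under another biotype. Of the 55, 39 were tested in each comparison of 2 groups and 40 in the interaction, and of 9 imprinted noncoding RNAs 8 were found and 7 or 8 tested. For HTT-deleted against control 0 were called by edgeR in either fraction without a block, with H13 in ribosome-associated RNA alone under an unadjusted p of 0.05. The smallest unadjusted p in ribosome-associated RNA belonged to H13 (-0.24, SE 0.097), Ppp1r9a (0.88, SE 0.38), Slc22a18 (-0.36, SE 0.21) and Dio3 (-0.62, SE 0.40). In total RNA they belonged to Atp10a (-0.50, SE 0.26), Tspan32 (1.01, SE 0.67), Commd1 (0.88, SE 0.59) and Ppp1r9a (0.59, SE 0.41), and in the interaction to H13 (-0.35, SE 0.20), Commd1 (-1.07, SE 0.67), Inpp5f (0.36, SE 0.25) and Atp10a (0.55, SE 0.38). With the block Dio3, the enzyme that inactivates thyroid hormone, encoded in the cluster of Dlk1, was called lower in ribosome-associated RNA at -0.56 (SE 0.13; edgeR adjusted p = 0.0353), a call lost without pair 1 (-0.55; adjusted p = 0.331). It had 7.66, 14.5 and 10.3 CPM in HTT-deleted replicates 1, 2 and 3, against 11.7, 26.6 and 11.8 CPM in controls. Without pair 1 and with the block, the noncoding Meg3 was called lower in total RNA, at -0.39 (SE 0.068; edgeR adjusted p = 0.0276), among 0.629% of all genes. That fit, too, leaves 1 residual degree of freedom. The median log2 fold change of the 39 without a block was -0.040 in ribosome-associated and 0.0070 in total RNA.

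Ribosome-associated RNA was also set against total RNA for these lists in control cells. Called lower by edgeR were 4 of the 39, against 15% of all genes, Ppp1r9a (-1.47, SE 0.31), Inpp5f (-0.52, SE 0.11), Igf2r (-0.42, SE 0.11) and Phactr2 (-0.35, SE 0.097), and 0 were called higher, against 10%. With the block 12 of 39 were higher and 7 lower, against 24.3% and 25.9%. Of the noncoding RNAs, 5 of 8 were called lower, namely Kcnq1ot1 (-4.97, SE 0.31), Meg3 (-3.78, SE 0.71), Mirg (-2.86, SE 0.48), Airn (-0.94, SE 0.16) and Rian (-0.72, SE 0.21), and 0 higher. With the block 5 were lower and 1 higher, H19, at 0.62 (SE 0.085; edgeR adjusted p = 4.8e-05). Coding and noncoding values overlapped, and the difference between the lists was not tested. In HTT-deleted cells 3 of 7 noncoding RNAs were called lower without the block, against 0.896% of all genes. They were Kcnq1ot1, Meg3 and Mirg, at -5.04, -4.38 and -3.08. The members' values in control cells ran from -0.90 to 0.77.

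Profiles over the 12 libraries were compared by the mean absolute difference of log2 CPM, each gene centred on its own mean, among 13450 genes. Nearest to Peg3 were Ccdc9b (0.096), Plekhg3 (0.097) and the imprinted noncoding Rian (0.14), and to Plagl1 Cyp4f17, Recql5 and Cmtr1 (0.088 to 0.11). Zim1 was nearest to Plekhh2, Mast4 and Tln2 (0.098 to 0.11), and Peg10 to Osbpl6, Spns2 and Adgrb2 (0.15 to 0.16). Dlk1 lay nearest to Rtl3, Grem1 and Slc27a6 (0.12 to 0.13), Mest to Snai1, Cx3cl1 and Negr1 (0.094 to 0.12) and Sgce to Serpinh1, Plpp1 and Wdpcp (0.054 to 0.066). Ndn was nearest to P4hb, Ergic3 and Slc39a1 (0.047 to 0.058) and Grb10 to Ulk2, Anxa6 and Asb7 (0.033 to 0.045). Nnat had no near neighbour, with Ccl11 at 0.34, Trac at 0.38 and Wnt4 at 0.39. Among members, Ndn and Sgce were nearest to each other (0.11) and so were Peg3 and Plagl1 (0.19). The 12 libraries share suspensions and the fraction difference, so likeness describes these libraries and carries no test.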

How the data were processed

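RNA sequencing covered 12 libraries in 4 groups of 3. The deposited files of the authors hold read counts for each Ensembl gene, made with STAR 2.7.2b as aligner and HTSeq 0.11.1 as counter, after FastQC, on GRCm38 (mm10), per the submitters' processing notes. Libraries were stranded and started from 250 ng of RNA, per the labels' protocols. No annotation release or counting strand was found, both being not given in the sources used here. The authors' deposited table holds, for each fraction, log2 values (fold change and mean level), a score from a likelihood ratio test and p-values with a false discovery rate. Its name points to RUVSeq, which models unwanted variation between libraries.

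The 5 summary entries that name no gene entered neither library sizes nor tests. Of 55487 identifiers, 55394 had a GENCODE M21 symbol. The share of reads in no feature was 2.64 to 3.30% in ribosome-associated and 6.94 to 7.73% in total RNA. No pair of replicates agreed within sampling noise (chi-square per degree of freedom 35.1 to 178), so none was treated as a library deposited again.

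Counts were scaled by TMM, filtered with filterByExpr and tested with edgeR 4.0.16 (robust quasi-likelihood, R 4.3.3), with Benjamini-Hochberg adjustment over all genes tested and a threshold of 0.05. A standard error is the fitted log2 difference over the root of its F statistic. CPM and RPKM use TMM library sizes, RPKM with the union of M21 exons, and log2 CPM a prior count of 2. Each comparison used the libraries of its own groups, and the interaction all 12. Replicates were different cultures or passages, so p-values measure the spread between those. Alternatives were RLE scaling, no filter, DESeq2 1.42.0, the replicate block, leaving out each library, and leaving out pair 1 with the block. Differences within each numbered pair were added after seeing the data.

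The numbers were taken to pair the samples. HTT-deleted and control libraries of equal number showed correlated deviations from their groups over 15574 genes, at 0.525, 0.703 and 0.626 in ribosome-associated and 0.227, 0.576 and 0.444 in total RNA. Per the labels' protocols, fractions of equal number share a suspension (0.347, 0.579 and 0.578 in HTT-deleted, 0.501, 0.737 and 0.651 in control cells). The fit was checked on simulated counts without an outlying library, so that check does not cover total HTT-deleted replicate 1.

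The members, gene lists and tests were chosen with earlier results of these data known. Named besides the members and Htt were, of the other imprinted genes, up to 8 called per direction in each comparison, or the 4 with the smallest p where none was called. Dio3, H19 and Meg3 (total RNA) were named from blocked fits after their values were seen. For likeness, the 3 nearest genes with a mean of at least 1 CPM were named.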

Additional observations from a re-analysis of the deposited data

How the results depend on the processing

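Genes called in all changed with the setting. In total RNA, HTT-deleted against control, 0 genes were called, against 1 without a filter on low counts, 3 with DESeq2 and 94 without pair 1 and with the block. In ribosome-associated RNA 0 became 1 with DESeq2, 247 with the replicate block and 14 without pair 1 and with the block. Between fractions, control cells gave 3745 calls, against 7524 with the replicate block, 7445 without pair 1 and with the block, and 1507 to 3251 when 1 library was left out. HTT-deleted cells gave 131, against 208 without a filter, 772 with DESeq2, 8333 without pair 1 and with the block, and 0 to 3008 when 1 library was left out, the highest without total HTT-deleted replicate 1. The interaction gave 0 throughout.

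Of 250 alternative values of the members outside the leave-one-out fits, 18 changed sign, all of them uncalled in both settings except Grb10 in HTT-deleted cells, and the cause was not tested. The replicate block turned Nnat in total RNA to 0.13 and Peg10 in the interaction to 0.027, and it changed no member's direction elsewhere. It ended no member's call. Without a filter, Sgce and Ndn in total RNA were -0.012 and -0.013, and with DESeq2 -0.0025 and -0.0036. Without pair 1 and with the block, HTT effects in total RNA were -0.029 for Sgce, 0.0013 for Grb10 and -0.16 for Ndn, and in ribosome-associated RNA -0.0062 for Zim1 and 0.033 for Nnat. The same fit gave interactions of -0.10 for Peg3, -0.039 for Plagl1, -0.079 for Grb10, 0.039 for Ndn, 0.023 for Mest and 0.64 for Nnat, and Grb10 at -0.13 for ribosome-associated against total RNA in HTT-deleted cells.

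Leaving out 1 library at a time, log2 fold changes that crossed 0 ran as follows. HTT effects in ribosome-associated RNA were -0.65 to 0.25 for Dlk1, -0.048 to 0.036 for Grb10, -0.41 to 0.046 for Mest, -0.76 to 0.40 for Nnat, -0.18 to 0.23 for Peg3, -0.20 to 0.076 for Sgce and -0.086 to 0.31 for Zim1. In total RNA they were -0.72 to 0.16 for Dlk1, -0.20 to 0.013 for Grb10, -0.38 to 0.05 for Mest, -0.078 to 0.082 for Ndn, -0.62 to 1.59 for Nnat and -0.089 to 0.13 for Sgce. Interactions were -0.39 to 0.60 for Dlk1, -0.0071 to 0.21 for Grb10, -0.25 to 0.24 for Mest, -1.62 to 0.59 for Nnat, -0.37 to 0.27 for Peg10, -0.098 to 0.25 for Plagl1 and -0.19 to 0.11 for Sgce. Ribosome-associated against total RNA was -0.10 to 0.13 for Grb10 and -0.25 to 0.75 for Dlk1 in HTT-deleted cells, and -0.25 to 0.55 for Dlk1 and -0.56 to 0.027 for Peg10 in control cells. Nnat rested on 3 to 88 reads a library.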

Other observations

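Igf2, the paternally expressed fetal growth factor, was nearly absent from the library that stood apart. It had 0.331, 13.7 and 6.91 CPM in total HTT-deleted replicates 1, 2 and 3, against 8.84, 14.7 and 6.27 CPM in total controls. The ribosome-associated library of the same suspension had 10.8 CPM, within the 8.36 to 19.5 CPM of the other ribosome-associated libraries. Commd1, another imprinted gene, was highest there, with 14.7, 4.09 and 3.56 CPM in total HTT-deleted replicates 1, 2 and 3, against 3.54, 4.45 and 4.65 CPM in total controls. Igf2 shares 62.8% of its exon bases with Gm49394 on the same strand, and how their shared reads were counted is not known here. Both genes were picked out after their values were seen.

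Cdkn1c, the maternally expressed inhibitor of cyclin-dependent kinases, was lowest in replicate 3 of every group. It had 90.9, 117 and 39.2 CPM in ribosome-associated HTT-deleted replicates 1, 2 and 3, against 81.5, 127 and 47.5 CPM in controls. In total RNA it had 96.3, 78.9 and 30.7 CPM in HTT-deleted cells, against 52.9, 87.5 and 30.8 CPM in controls. H19, the maternally expressed noncoding RNA, was highest in replicate 3 of every group, at 5234 CPM in ribosome-associated HTT-deleted, 5538 CPM in ribosome-associated control, 3335 CPM in total HTT-deleted and 3360.2 CPM in total control cells.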
